A study of Mus musculus with 8 samples.

Results

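The genes described here are 8 genes listed together as targets of the tumour suppressor p53 in apoptosis, outside the BCL2 family. They are Phlda3, Ei24, Aen, Perp, Zmat3, Apaf1, Triap1 and Sertad1. They were taken by name from the deposited table, where all 8 were found among 18138 gene names. On the array they are written in capitals (PHLDA3, EI24, AEN, PERP, ZMAT3, APAF1, TRIAP1 and SERTAD1). They were chosen by name, but with the cB and DC values of p53 targets on these arrays already known, so the differences between the groups are given as a description, with no test. The samples were OT-1 cells, CD8+ T cells of the mouse that carry a T cell receptor for the ovalbumin peptide SIINFEKL on H2-Kb. In both groups the stimulating cells had been grown in culture, matured with LPS and loaded with that peptide, the co-culture lasted 24 h at a ratio of 5 to 1, and the T cells were then sorted as CD8+ CD69+. The groups differed in the stimulating cell: B cells activated through CD40 (cB, 4 arrays) or dendritic cells (DC, 4 arrays). RNA was hybridized to Illumina mouse-ref8-v2.0 beadchips. The labels do not say whether the 4 arrays of a group came from separate animals or cultures, so SE and p-values cover only how far these 4 arrays vary, and that variation may be technical.

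p53 is a transcription factor that accumulates after DNA damage and other stress and switches on genes for cell cycle arrest, repair and death. Many of its death targets belong to the BCL2 family and open the mitochondrial outer membrane. The genes here act at other places: downstream of the mitochondria (Apaf1), on survival signalling (Phlda3), at the endoplasmic reticulum (Ei24), in the nucleus and on RNA (Aen, Zmat3), at the cell surface (Perp), inside mitochondria (Triap1), and on the cell cycle machinery (Sertad1). In activated T cells, p53 targets are of interest because rapid division brings replication stress, and because death limits how far a clone expands.

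All 8 genes have a position in RefSeq on assembly GRCm38.p6, and 6 of them have a promoter window there, reaching from 250 bases before to 50 bases after the start of a transcript. The windows were searched for exact matches to the p53 consensus decamer, which p53 binds in pairs and which reads alike on both strands. A match was found in the window of Ei24 and in both windows of Aen, which share it, and none in those of Phlda3, Apaf1, Triap1 and Sertad1. Of all 32851 promoter windows of this length 8.36% held a match. A match is a run of letters and no measured binding, and many p53 elements lie in introns, outside these windows. The sequence upstream of Ei24 (chr9:36797335-36797584, minus strand) is shown because its match ends at the last base before the start; that of Phlda3 (chr1:135765835-135766084, plus strand) because Phlda3 had the widest difference of the members; and 30 bases around the match in Aen (chr7:78895927-78895956, plus strand). Capitals mark the matches.
Ei24 upstream: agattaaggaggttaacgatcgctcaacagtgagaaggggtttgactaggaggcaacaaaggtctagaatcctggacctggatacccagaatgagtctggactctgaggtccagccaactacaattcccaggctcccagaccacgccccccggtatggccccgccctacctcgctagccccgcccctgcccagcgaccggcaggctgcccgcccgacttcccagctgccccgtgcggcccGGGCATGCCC
Phlda3 upstream: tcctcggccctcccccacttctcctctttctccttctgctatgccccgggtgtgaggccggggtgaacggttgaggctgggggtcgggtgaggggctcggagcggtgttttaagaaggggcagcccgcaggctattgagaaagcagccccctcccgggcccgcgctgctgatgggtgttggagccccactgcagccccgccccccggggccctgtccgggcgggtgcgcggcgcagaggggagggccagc
Aen match: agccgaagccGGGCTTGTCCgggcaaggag
The Ei24 match carries the central CATG, a sequence found in 61.1% of all windows, and the Aen match does not. The member windows were rich in G and C, from 58.0% in Aen to 74.7% in Apaf1, where the median of all windows was 52.7%.

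Mean intensity per array ran from 602 to 824, and between 38.3% and 40.8% of the gene names were detected on an array, where detected means a detection p below 0.05. Log2 values of arrays from the same group correlated at 0.979 or more, and those of arrays from different groups at 0.883 or less. T cell markers were present, with 9 of the 10 found passing the detection filter; Cd8a was undetected on all 8 arrays, while Cd8b1 was detected on all. Of the B cell markers 4 of the 11 found could be tested. Of these, 3 were higher in cB, with Cd79b at least 4.88-fold, and Pou2af1, the brightest of the list, was higher in DC (log2 difference -1.27 ± 0.16, SE). Pax5, Blk, Cd22 and Cr2 were undetected throughout. Of the myeloid and dendritic cell markers 5 of 14 could be tested. Of these, 4 were higher in DC, with Cd14 at least 5.08-fold and the brightest, Cst3, at -0.26 ± 0.10, and Fscn1 was higher in cB. The bounds of Cd79b and Cd14 hold only for the background treatment used here. In the normalized values of the authors the log2 difference, cB minus DC, was smaller, 0.97 for Cd79b and -0.97 for Cd14. Lyz2 and Ccl17 were detected on 3 DC arrays and on no cB array, and in both every DC array lay above every cB array. In all, 6 of the 14 were undetected on all 8 arrays, among them Itgax, Itgam and Csf1r. The summed normalized intensity of the list was 3127 to 3417 on cB and 3505 to 4579 on DC arrays, and that of the B cell list 735 to 979 and 752 to 926. The part of such RNA in the differences below was not tested.

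Of the 8 members 7 were detected on enough arrays to be analysed (at least 4 of 8), and each of the 7 was higher in DC-stimulated cells. Phlda3 was 17.9-fold higher, Zmat3 10.8-fold, Apaf1 7.35-fold, Ei24 5.88-fold, Sertad1 3.79-fold and Triap1 1.63-fold, while the size for Aen, close to background in cB, depended on the treatment of background. Perp was detected on no array of either group. In the fit over all 7167 genes tested, 61.4% were called (limma, adjusted p below 0.05), 31.6% higher in DC and 29.8% higher in cB. The groups did not overlap in 56.8% of the genes, and in 29.1% every DC array lay above every cB array. The groups were apart in all 7 members, a count the choice of the list may have set and from which nothing is read. The median log2 difference, cB minus DC, was -2.55 over the 7 and -0.03 over all genes tested. In these bulk samples, fewer cells expressing a gene and less RNA per cell cannot be told apart.

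**Figure D1:**
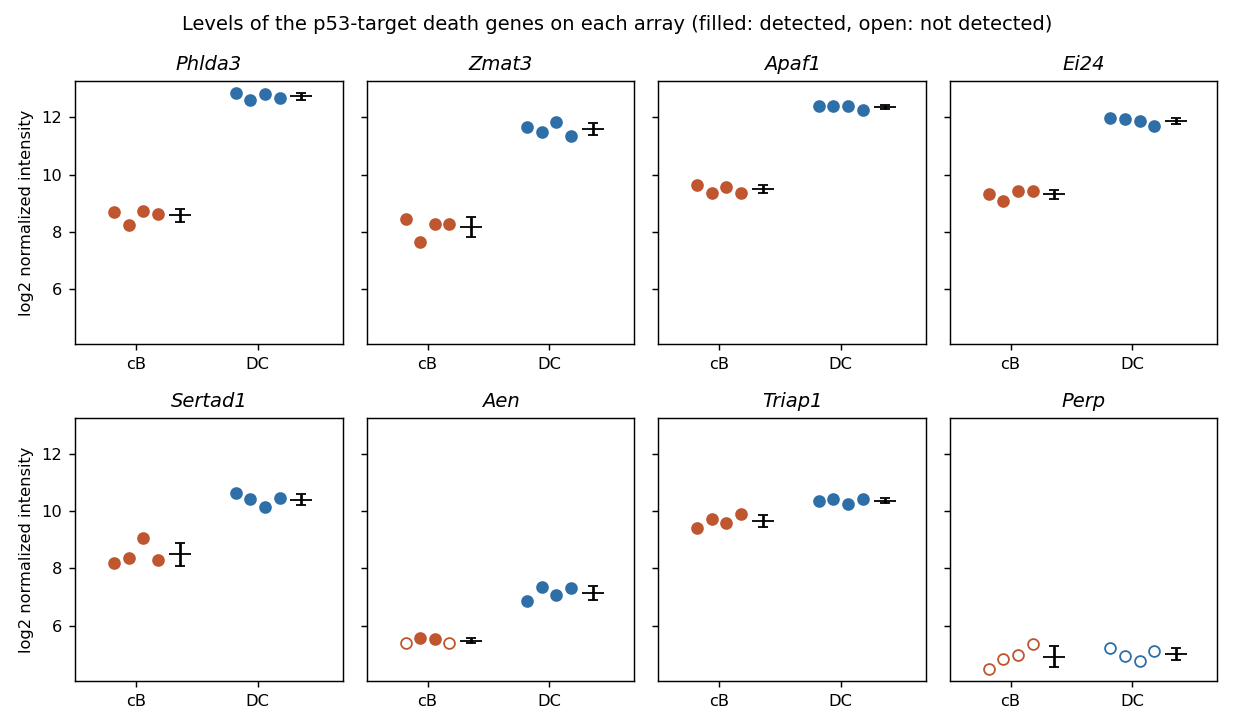
Normalized log2 intensity of the 8 members on each array (y axis) by group (x axis), with filled points for arrays on which the gene was detected and open points for the others; the bar beside each group is the mean ± SD of 4 arrays. In 7 genes the DC points lie above all cB points, with Phlda3 the widest apart, and in Perp all points are open and overlap.

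Apaf1 encodes the scaffold that binds cytochrome c released from mitochondria and assembles the apoptosome, on which caspase-9 is activated. Its log2 level was 9.64, 9.36, 9.57 and 9.37 on cB replicates 1 to 4 and 12.39, 12.41, 12.39 and 12.26 on DC replicates 1 to 4. The arrays within each group lay close together, and the lowest DC array was 2.62 above the highest cB array. The difference was -2.88 ± 0.10 (SE, n = 4 per group). Apaf1 was bright in the unprocessed data as well, with intensities of 640 to 1085 on cB and 4634 to 5959 on DC arrays. Its SD within DC was 0.07, the smallest among the members, and 0.14 within cB.

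Phlda3 encodes a small protein made largely of a pleckstrin homology domain, which competes with AKT for membrane lipids and so restrains survival signalling. The log2 level of Phlda3 was 8.71, 8.25, 8.71 and 8.64 on cB replicates 1 to 4 and 12.85, 12.61, 12.81 and 12.67 on DC replicates 1 to 4. All DC arrays were high and all cB arrays low, with a gap of 3.89 between the nearest arrays, and cB replicate 2 was the lowest. The difference was -4.16 ± 0.13 (SE, n = 4 per group), rank 15 of the 7167 genes counted from the DC side. In deposited intensities the lowest DC array (5340) was still 7.95 times the highest cB array (672).

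Ei24 encodes a membrane protein of the endoplasmic reticulum that was found as a gene induced by p53 and by etoposide, and that also takes part in autophagy. Ei24 stood at log2 levels of 9.34, 9.09, 9.43 and 9.41 on cB replicates 1 to 4 and 11.97, 11.93, 11.88 and 11.71 on DC replicates 1 to 4. The groups did not overlap, by 2.27 at the nearest arrays, and cB replicate 2 was again the lowest. The difference was -2.55 ± 0.11 (SE, n = 4 per group). The upstream sequence of Ei24 is the one printed above with a match to the p53 decamer directly before the start.

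Zmat3 encodes a zinc finger protein that binds RNA and is known to affect the stability and splicing of transcripts, among them some of the p53 pathway. On the log2 scale Zmat3 was at 8.46, 7.64, 8.28 and 8.26 on cB replicates 1 to 4 and 11.68, 11.49, 11.85 and 11.35 on DC replicates 1 to 4. The replicates of Zmat3 were more spread than those of Phlda3 or Apaf1, with an SD of 0.36 in cB and 0.22 in DC, yet the groups were 2.89 apart. The difference was -3.43 ± 0.18 (SE, n = 4 per group), rank 30 from the DC side.

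Aen encodes a nuclease of the nucleus and nucleolus that digests DNA and RNA during p53-dependent death. It was the dimmest of the analysed members. Its log2 level was 5.38, 5.58, 5.55 and 5.40 on cB replicates 1 to 4, where it was detected on replicates 2 and 3 only, and 6.85, 7.34, 7.06 and 7.31 on DC replicates 1 to 4, where it was detected on all. In deposited intensities the cB arrays held 174 to 196 and the DC arrays 244 to 294, while the mean of the negative controls was estimated at 148 to 167 with an SD of 15.07 to 25.44. The cB values of Aen thus lay near background, and the size of its difference, -1.66 ± 0.13 (SE, n = 4 per group), changed with the treatment of background. It was -0.62 with no background correction and -0.21 when all genes were used to estimate the background; the authors' normalized gene values were 7.52 in cB and 8.14 in DC, a difference of -0.62. Under each of these DC was the higher group. The all-gene estimate put the SD of the negative controls at 310 to 344 on cB and 195 to 250 on DC arrays. That is far above the 15.07 to 25.44 of the main estimate, so the size it gives for Aen is less reliable.

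Perp encodes a membrane protein of the PMP22 family that is needed for desmosomes in epithelia and is a p53 effector in some cell types, thymocytes of the mouse among them. Its intensity was 124, 145, 166 and 190 on cB replicates 1 to 4 and 175, 155, 152 and 163 on DC replicates 1 to 4. The detection p ran from 0.088 to 0.996 on cB and from 0.17 to 0.73 on DC arrays, so the gene was not above background on any of them and no fold is given. All DC values lay within the range of the cB values. Perp had no row among the authors' normalized gene values.

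Triap1 encodes a small mitochondrial protein that, in human cells, works with proteins of the PRELI family to carry phosphatidic acid between the mitochondrial membranes and protects from apoptosis. It is thus the member whose known role is on the side of survival. Log2 levels of Triap1 were 9.41, 9.74, 9.59 and 9.89 on cB replicates 1 to 4 and 10.37, 10.42, 10.24 and 10.43 on DC replicates 1 to 4. All DC arrays were above all cB arrays, but the nearest were only 0.36 apart. The difference was -0.71 ± 0.12 (SE, n = 4 per group), rank 1381 from the DC side. It was the smallest among the 7 here, but not under an all-gene background estimate, where that of Aen was smaller. DC was higher in deposited intensities too, with 800 to 1213 on cB and 1305 to 1520 on DC arrays.

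Sertad1 encodes a nuclear protein with a SERTA domain that binds the cyclin-dependent kinase CDK4 and acts on transcription by E2F factors. Sertad1 was at log2 levels of 8.20, 8.38, 9.06 and 8.31 on cB replicates 1 to 4 and 10.62, 10.42, 10.13 and 10.46 on DC replicates 1 to 4. On cB replicate 3 it was higher than on the other cB arrays, and on DC replicate 3 lower than on the other DC arrays, so the nearest arrays were 1.07 apart. The difference was -1.92 ± 0.19 (SE, n = 4 per group), and -2.12 without cB replicate 3.

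Ordered by the size of the difference, the members ran Phlda3, Zmat3, Apaf1, Ei24, Sertad1, Aen and Triap1. Neighbouring sizes were between 0.26 and 0.95 apart on the log2 scale. The gap between Sertad1 and Aen (0.26) was about as large as the combined SE of both (0.23), so these neighbours were not separated by their spread, and that between Apaf1 and Ei24 (0.32) was a little over 2 times its combined SE (0.15). When all genes were used to estimate the background, Phlda3, Zmat3, Apaf1, Ei24 and Sertad1 kept this order, at -4.41, -3.44, -3.21, -2.88 and -1.93, while Aen (-0.21) and Triap1 (-0.84) exchanged places. The first 5 also kept it in the normalized values of the authors, where the differences were -3.72, -2.90, -2.65, -2.31 and -1.57. There Aen and Triap1 were of the same size (-0.62 each).

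**Figure D2:**
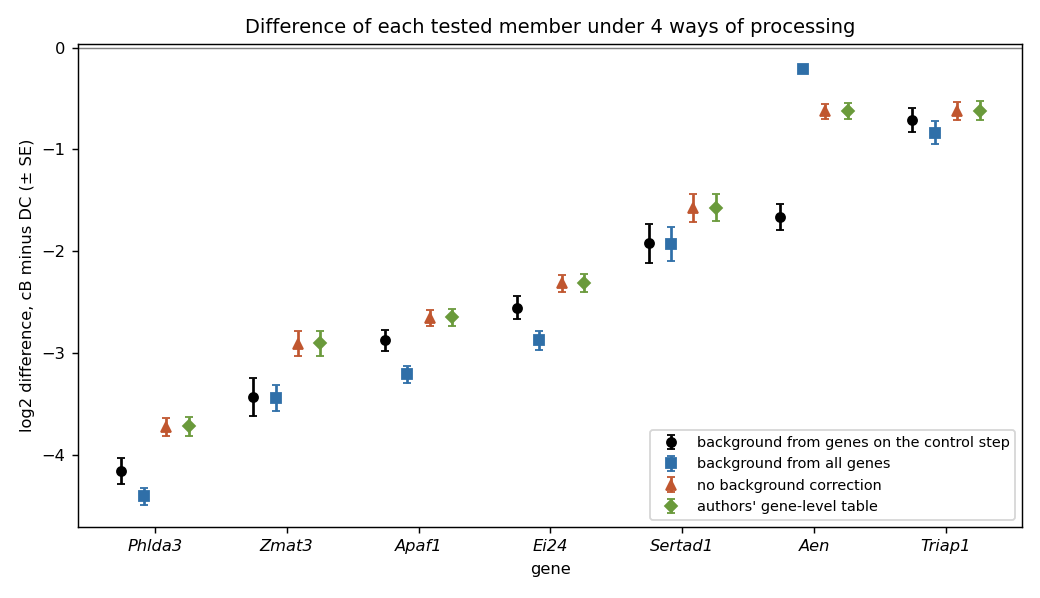
Log2 difference, cB minus DC (y axis, ± SE, 4 arrays per group), of the 7 analysed members (x axis) under 4 ways of processing, each with its own symbol. All values lie below 0. Aen moves most between the ways, from -1.66 to -0.21, while Triap1 stays between -0.84 and -0.62.

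Within a group the members did not vary as one block. Deviations of each array from its group mean were compared over the 8 arrays, as a description. Phlda3 and Zmat3 deviated together (Pearson r = 0.93), and Ei24 with each of them (r = 0.78 for both). Apaf1 was on the same side, with r between 0.57 and 0.69 to those 3 genes. Triap1 ran against Apaf1 (r = -0.85), Aen against Phlda3 (r = -0.63), and Sertad1 followed none of them closely (r between -0.08 and 0.31). On the cB arrays Aen was near background, so its r rests in part on values with little signal. Over all 21 pairs the median r was 0.12.

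Replicate 2 of cB was below its group mean in Phlda3 (by a log2 deviation of -0.33), Ei24 (-0.23), Zmat3 (-0.52) and Apaf1 (-0.12). That array also had the lowest mean intensity of the 8 (602), and cB replicate 3, where the mean deviation over the 7 members was the highest (0.15), had the highest (824). The part of intensity in these deviations was not tested. On the DC arrays the mean deviation stayed between -0.04 and 0.04.

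**Figure D3:**
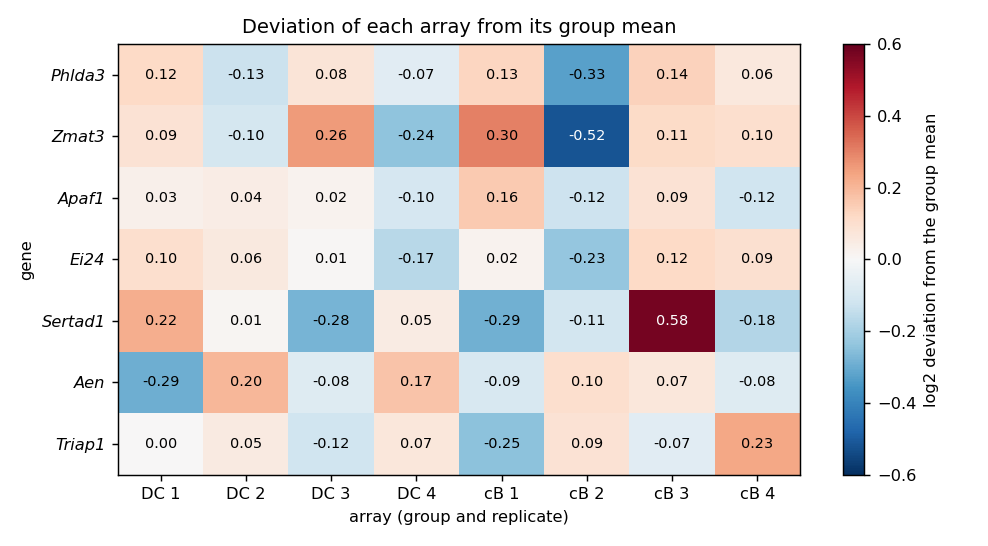
Deviation of the log2 level from the group mean for the 7 analysed members (rows) on each of the 8 arrays (columns), with the value in each cell; red is above and blue below the group mean. The upper 4 rows are all blue on cB replicate 2, and the largest single deviation is that of Sertad1 on cB replicate 3 (0.58).

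Genes most like the members were sought among the other 7160 genes tested. By the correlation of levels over the 8 arrays with the mean centred profile of the 7 members, the nearest were Crip2, a LIM domain gene (r = 0.9995), the gene that the array names TAZ, a name that fits both Taz and Wwtr1 (r = 0.9992), and Irgm2, an interferon-inducible GTPase gene that the array names IIGP2 (r = 0.9992). They differed by -3.03 ± 0.09, -1.25 ± 0.09 and -2.11 ± 0.10 between the groups. High values of this measure were common, with r above 0.9 in 1393 of the 7160 genes. By deviations from the group means the nearest were Zkscan17, a zinc finger gene (r = 0.99), Espn, an actin-bundling protein gene (r = 0.99), and Igtp, another interferon-inducible GTPase gene (r = 0.98). Of these, Zkscan17 did not differ between the groups beyond the threshold (0.10 ± 0.20, limma adjusted p = 0.69), while Espn (-2.14 ± 0.25) and Igtp (-1.73 ± 0.11) were higher in DC. The difference of Espn was -1.04 in the normalized values of the authors and -0.49 under an all-gene background estimate. By deviations, r was above 0.9 in 26 of the 7160 genes. The mean deviation of the members was largest on cB replicate 2 (-0.16) and cB replicate 3 (0.15), so these correlations rest mainly on those arrays.

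A list of p53 and its regulators was also looked at, of which 22 of 24 were in the table and 14 were tested. It mixes genes that act upstream of p53 with genes that p53 induces. Of the 14, 7 were higher in DC and 1, the ubiquitin ligase gene Cop1 (0.54 ± 0.17), was higher in cB, with a median difference of -0.42. The other 6, Atm, Chek2, Trp53bp1, Usp7, Kat5 and Daxx, named after their values were seen, did not pass the threshold. Over all genes tested 31.6% were higher in DC and 29.8% in cB. The p53 targets of this list and the next are described without p-values, since such genes were known to differ on these arrays. Mdm2, which encodes the ligase that degrades p53 and is itself a p53 target, was at 10.82, 10.46, 10.70 and 10.64 on cB replicates 1 to 4 and 13.58, 13.48, 13.38 and 13.32 on DC replicates 1 to 4. That made it 6.88-fold higher in DC, close in size to Apaf1. Ccng1, a cyclin gene induced by p53, differed by -2.77 ± 0.11, and Ppm1d, the gene of a phosphatase that turns p53 signalling down, by -1.82 ± 0.10. Trp53 itself, named after its values were seen, was higher in DC by a smaller amount, -0.66 ± 0.09. Cop1 was no longer called under an all-gene background estimate, without background correction, in the normalized values of the authors, or without DC replicate 4.

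Other p53-linked genes of death and stress were also on the DC side. Of 11 tested (16 of 19 were in the table), 10 were higher in DC and 1 in cB, with a median of -1.34, where 31.6% and 29.8% of all genes tested were; this list too was chosen with results of these data known. Plk2, a stress-induced kinase gene, was at 5.98, 5.20, 5.79 and 5.96 on cB replicates 1 to 4, where it was detected on 3 arrays, and between 9.94 and 10.06 on the DC arrays. Its difference was -4.25 ± 0.17, about that of Phlda3. It was -2.56 in the normalized values of the authors and -2.16 under an all-gene background estimate. The death receptor gene Fas differed by -3.00 ± 0.13. Tnfrsf10b, the gene of the TRAIL receptor, differed by -1.77 ± 0.11, by -1.09 in those normalized values and by -0.72 under the all-gene background. The gene higher in cB, named after its values were seen, was the effector caspase gene Casp6 (1.29 ± 0.19).

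In the list of apoptosome and caspase partners, which is wider than the genes that act with Apaf1, more were higher in cB than in DC. Of the 18 found 11 were tested. Of these, 7 were higher in cB and 3 in DC, with a median of 0.36, against 29.8% and 31.6% of all genes tested. The count higher in cB was 5 of 11 when arrays were scaled to one median and 5 of 9 with detection on all 8 arrays, and it was 5 to 7 with 1 array left out. Vdac1, the gene of a channel in the mitochondrial outer membrane, was at 9.75, 9.99, 9.73 and 10.17 on cB replicates 1 to 4 and 8.22, 8.27, 7.99 and 8.11 on DC replicates 1 to 4, a difference of 1.76 ± 0.13 (limma adjusted p = 1.7e-06). Htra2, which encodes a mitochondrial protease that counters inhibitors of apoptosis, differed by 1.35 ± 0.12 (adjusted p = 9.3e-06). Pdcd6ip, the gene of the ESCRT-linked protein ALIX, differed by -2.13 ± 0.16 (adjusted p = 2.2e-06). Birc2, an inhibitor of apoptosis gene named after its values were seen, was also higher in DC (-0.98 ± 0.12). Vdac1, Htra2 and Pdcd6ip had the lowest p of a list chosen with results of these data known, so their p-values are descriptive. Cycs, the gene of cytochrome c, was detected on 1 array, and Casp9, the gene of the caspase on the apoptosome, on none, so neither was tested. The authors' normalized values hold Casp9 at 8.02 in cB and 7.83 in DC.

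The relatives and partners of the members did not move as one group. Of 9 tested (18 of 20 were in the table), 5 were higher in DC and 3 in cB, with a median of -0.42; of all genes tested 31.6% and 29.8% were, so the share higher in cB was near the background. Prelid3b, a PRELI family gene that the array names SLMO2, was higher in cB: it was at 12.85, 12.86, 12.66 and 12.86 on cB replicates 1 to 4 and 11.85, 11.70, 11.87 and 11.79 on DC replicates 1 to 4. The difference of 1.00 ± 0.09 (limma adjusted p = 1.0e-05) was opposite in sign to that of Triap1, whose protein works with this family. Phlda1, a paralogue of Phlda3 with the same kind of domain, differed by -1.34 ± 0.15 (adjusted p = 3.9e-05), against -4.16 for Phlda3; under an all-gene background estimate it was at -0.34, and in the normalized values of the authors at -0.69. Sertad2, a paralogue of Sertad1 detected on 2 cB and 3 DC arrays, differed by -0.80 ± 0.10 (adjusted p = 7.0e-05). Its mean level, 8.28 in cB and 9.07 in DC, was above that of Phlda1 (6.60 and 7.94), which was detected on every array. Prelid3b, Phlda1 and Sertad2 had the lowest p of a list chosen with results of these data known, so their p-values are descriptive. The count of 3 genes higher in cB fell to 1 when arrays were scaled to one median and in 4 of the 8 fits that left out an array (cB replicate 2, cB replicate 3, DC replicate 3 or DC replicate 4).

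**Figure D4:**
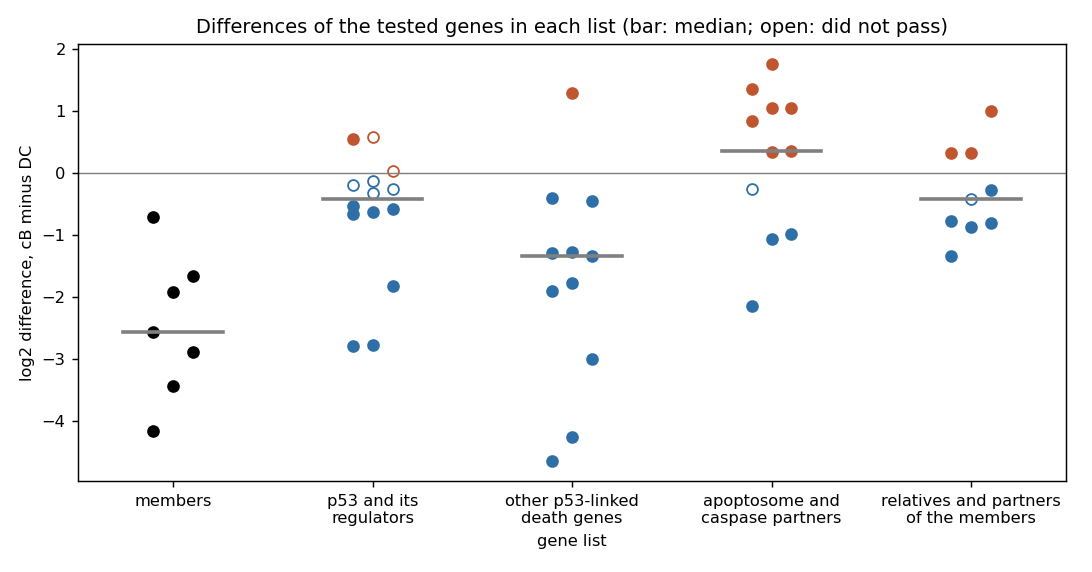
Log2 difference, cB minus DC (y axis), of every tested gene in 5 lists (x axis): the members in black, and in the other lists blue for higher in DC, orange for higher in cB and open symbols for genes that did not pass the threshold. Grey bars are medians. The members and the other p53-linked genes lie mostly below 0, and most apoptosome and caspase partners lie above it.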

How the data were processed

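Bead intensities, on a linear scale and not normalized, and a detection p-value per gene name and array are as deposited, per the file headers. Normalized log2 values of 7266 genes were deposited too, made by the authors in a way that the sources used here do not give. Groups and replicate numbers came from the sample titles.

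Background was estimated per array (limma 3.58.1, R 4.3.3) from the 13929 gene names whose detection p-values are whole multiples of 1 part in 798 (tolerance 0.001 of a step), like ranks among control beads; all 8 members are among them. For the other 4209 names, Mdm2, Fas, Tnfrsf10b, Sertad2, Cycs and Casp9 among them, the detection p-values are not such multiples. A missed detection may not mean a low level there. Normexp correction with an offset of 16, quantile normalization and log2 followed. The 7167 gene names detected (p below 0.05) on 4 or more of the 8 arrays were fitted with lmFit and eBayes, cB minus DC, with Benjamini-Hochberg adjustment over all of them and a threshold of 0.05. Where no array of a group detected a gene, the fold is a bound ("at least") against, per array, the lowest detected value or its own, whichever is higher. Such a bound holds for this background treatment only. The procedure was tested on simulated data.

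The members and lists were chosen with earlier results of these data known. Besides the members, the rule names the 3 genes of lowest p in each context list, the 3 most alike by each measure, and the brightest B cell and myeloid marker. No 2 arrays held identical values. Alternatives were an all-gene background estimate, no correction, the normalized values of the authors, median scaling, an offset of 50, other detection filters, a replicate block and leaving out each array. The all-gene estimate put the SD of the negative controls at 195 to 344, against 15 to 25 from the names on the step. Sizes under it are therefore less reliable for dim genes. Promoter sequences are from RefSeq, assembly GRCm38.p6. The number of arrays limits the precision. Some genes of the lists are not reported here.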

Additional observations from a re-analysis of the deposited data

Results flagged for a closer look

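Levels were examined for an array whose gap to the nearest other array of its group took up most of the group's range (Dixon's ratio above its critical value for 4 arrays). Of 40 groups of 4 arrays, over the 8 members and the 12 named genes of the context lists, 4 were picked out, where chance gives about 1 in 20. Phlda3 was low on cB replicate 2, at a log2 level of 8.25 against 8.64 to 8.71 on the other cB arrays (ratio 0.836). Apaf1 was low on DC replicate 4, at 12.26 against 12.39 to 12.41 (ratio 0.852). Prelid3b was low on cB replicate 3, at 12.66 against 12.85 to 12.86 (ratio 0.966). Sertad2 was high on DC replicate 1, at 9.22 against 9.01 to 9.04 (ratio 0.852). With 1 array left out at a time, the difference of Phlda3 was between -4.21 and -4.03.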

How the results depend on the processing

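The 7 members kept their direction in all 118 recomputed values, 17 of which moved by more than the SD between replicates. The member median was -2.88 under an all-gene background estimate, -2.32 without background correction and -2.31 in the normalized values of the authors; it was -2.62 to -2.47 with 1 array left out. With detection required on all 8 arrays Aen was not analysed. Of 7167 genes, 4398 passed, with 3502 to 4743 under the other settings and 3979 to 4180 with 1 array left out. The count of p53 regulators higher in cB, 1 as reported, was 0 under the all-gene background, without correction, in the authors' values, with detection on all 8 arrays or a detection p below 0.01, 2 with no detection filter, and 0 to 1 with 1 array left out (0 without DC replicate 4). The count of relatives and partners higher in cB, 3 as reported, was 1 with median scaling and 1 to 3 with 1 array left out. Zkscan17, which did not pass, ranged from -0.064 (without cB replicate 3) to 0.30 (without cB replicate 2). The replicate numbers were not taken to pair the arrays: deviations of same-numbered arrays correlated at 0.082 to 0.17, although all 8 arrays correlated best with their own number. With the replicate block 4427 genes passed, the count of p53 regulators higher in cB was 2, and that of relatives and partners higher in DC 4 in place of 5. The cause of these shifts was not tested. Signal over background limits Aen and Perp most.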
